A study of Mus musculus with 8 samples.

Results

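Histones are the proteins that package DNA, and the genes read here were those annotated as histones on an array of 45101 probe sets. A probe set was taken as a histone probe set where a symbol annotated to it began with a histone gene name (the H1f, H2ac, H2bc, H3c, H4c, H2az, H2ax and H3f series and their older Hist names). This gave 49 of the 45037 probe sets that are not array controls, 25 of them annotated to 1 gene and 24 to several. Oligodendrocyte precursor cultures of ICR mice, prepared from mixed cultures of the cerebral hemispheres of embryos aged 15 days, were grown for 5 days with 10% serum and then passaged to a medium without serum. They were held for 48 hr at 31.5 °C (4 arrays, replicates 1 to 4) or at 37 °C (4 arrays, replicates 1 to 4). The labels name no transgene, drug or other treatment, and temperature is the only factor they give that differs between the groups. They give 3 mice for each group but 4 arrays, and nothing there shows that the replicates were separate cultures, so p-values measure only the spread between these samples.

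Histones come as the linker H1, which binds DNA between nucleosomes, and the core histones H2A, H2B, H3 and H4, around which the DNA is wound. Most are made from clusters of genes without introns that are read during S phase, when new DNA needs packing. The mRNA of these replication-linked genes ends in a stem-loop in place of a poly(A) tail, although poly(A) forms of some are known. Variant histones such as H2az1, H2az2, H2ax, H3f3a, H3f3b and H1f10 come from genes that mostly lie outside these clusters and have ordinary poly(A) mRNA, and can be put into chromatin outside S phase. Arrays of this kind commonly start their labelling from the poly(A) tail. The primer is not given in the sources used here, so the signal of a replication-linked gene may stand for only some of its mRNA. By the RefSeq gene table (GRCm38.p6) the 50 replication-linked symbols on the histone probe sets lay on chromosome 13 (42 genes) and chromosome 3 (8 genes), and the 10 variant symbols were scattered over 8 chromosomes.

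The windows in front of 4 replication-linked genes that fell and of the variant linker gene H1f10, which was higher, are shown as examples. The probe sets of these genes that were called carry 1 symbol each. H2bc22 and H2ac19, which also fell with a probe set of 1 symbol, are not shown. Of the 16 replication-linked falls described below, 9 were of probe sets with several symbols. Each window runs from 250 bases before to 50 bases after the RefSeq transcription start, 5′ to 3′ on the strand of the gene (RefSeq, GRCm38.p6). Capitals mark an octamer (ATTTGCAT), a CCAAT box (CCAAT) or a TATA box (TATAAA) on either strand. No motif of the 3 contains another.
H2bc18, chr3:96269450-96269749, + strand: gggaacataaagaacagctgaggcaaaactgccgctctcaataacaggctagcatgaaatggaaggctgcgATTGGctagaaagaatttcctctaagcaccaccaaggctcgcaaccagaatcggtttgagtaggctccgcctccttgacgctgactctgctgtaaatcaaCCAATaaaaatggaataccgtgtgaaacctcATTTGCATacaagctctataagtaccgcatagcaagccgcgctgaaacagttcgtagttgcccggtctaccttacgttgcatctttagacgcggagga
H3c11, chr13:21783348-21783647, - strand: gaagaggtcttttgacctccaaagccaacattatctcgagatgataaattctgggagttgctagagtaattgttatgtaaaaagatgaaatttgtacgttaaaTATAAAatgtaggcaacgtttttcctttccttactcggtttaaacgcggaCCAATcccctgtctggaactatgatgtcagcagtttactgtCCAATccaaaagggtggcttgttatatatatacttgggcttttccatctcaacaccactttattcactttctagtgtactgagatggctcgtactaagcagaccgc
H3c4, chr13:23575513-23575812, + strand: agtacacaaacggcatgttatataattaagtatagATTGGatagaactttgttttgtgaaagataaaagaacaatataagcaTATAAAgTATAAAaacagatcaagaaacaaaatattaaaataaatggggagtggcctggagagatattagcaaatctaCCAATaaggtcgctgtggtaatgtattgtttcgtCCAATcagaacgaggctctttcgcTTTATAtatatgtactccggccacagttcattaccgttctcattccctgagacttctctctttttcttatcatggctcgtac
H1f2, chr13:23738557-23738856, + strand: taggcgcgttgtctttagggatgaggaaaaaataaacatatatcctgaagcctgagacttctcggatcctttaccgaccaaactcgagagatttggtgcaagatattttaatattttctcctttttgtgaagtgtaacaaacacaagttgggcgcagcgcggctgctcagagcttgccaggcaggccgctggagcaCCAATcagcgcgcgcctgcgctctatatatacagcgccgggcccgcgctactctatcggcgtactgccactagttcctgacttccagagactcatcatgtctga
H1f10, chr6:87981433-87981732, - strand: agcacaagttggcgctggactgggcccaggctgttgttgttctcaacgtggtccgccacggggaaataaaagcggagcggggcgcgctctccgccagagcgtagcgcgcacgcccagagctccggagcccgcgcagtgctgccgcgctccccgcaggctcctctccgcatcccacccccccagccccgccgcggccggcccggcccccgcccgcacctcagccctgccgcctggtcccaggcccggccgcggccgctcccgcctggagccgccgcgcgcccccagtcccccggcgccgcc
The window of H2bc18 held 1 octamer and 2 CCAAT boxes, that of H3c11 2 CCAAT boxes and 1 TATA box, that of H3c4 3 CCAAT boxes and 3 TATA boxes, and that of H1f2 1 CCAAT box. In the window of H1f10 the letters of none of the 3 occur. Over the 58 windows of replication-linked genes in the table, 86.2% held a CCAAT box and 58.6% a TATA box, against 37.4% and 13.6% of all 32851 windows. Of the 11 windows of variant genes, 63.6% held a CCAAT box and 18.2% a TATA box, and of the 11 H4 windows 27.3% held a CCAAT box, a smaller share than of all windows. The octamer, known from H2B promoters, stood in 7 of 15 H2B windows, 6 of 17 H2A windows and in none of the H1, H3 and H4 windows, against 1.74% of all windows. Matches were counted at any place in the window, so a match named a TATA box need not lie where such a box works. Other stretches of A and T, as in the windows of H1f2 and H3c11, were not counted. A match is a description of letters and shows no bound factor.

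The comparison asks which transcripts differ between cultures kept cool and cultures kept at body temperature. Replication-linked histone transcripts were mostly lower at 31.5 °C, and the H2B, H3 and H4 probe sets that fell and were above the floor on every array were 1.60-fold to 5.56-fold lower, while most variant histones did not pass the test. Of 22 replication-linked probe sets bright enough to test, 16 fell, 1 rose and 5 did not pass, at a median log2 change of -1.22. That median was -0.78 with a higher floor (the 50th percentile of values) and -0.65 with 1 probe set per gene symbol (8 probe sets). Of 15 variant probe sets tested, 0 fell (limma; 2 were below with groups that did not overlap, and 1 fell with an intensity trend), 1 rose and 14 did not pass, at a median of 0.02. Over all 22519 probe sets tested, 6.83% fell and 6.52% rose, and the median was -0.005. The test was limma's over all these probe sets (31.5 °C minus 37 °C), and a call is a Benjamini-Hochberg adjusted p under 0.05. A probe set was tested where its mean signal over all 8 arrays reached 38.2, so some entered only through the arrays of 1 temperature. The difference between the replication-linked and the variant set was not itself tested.

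Signals below are scaled to a common trimmed mean, and are given for replicates 1 to 4. Means are ± SD (n = 4 arrays per temperature) and log2 changes ± SE. Before scaling, the 2% trimmed means of the deposited signal ran between 189 and 238 at 31.5 °C and between 132 and 248 at 37 °C, with replicate 4 at 37 °C the dimmest. Signals at or under a floor of 9.80 have no order. Under median scaling, 61.4% of all calls were higher, against 48.9% with the trimmed mean. In bulk cultures, fewer cells of a kind and less RNA per cell cannot be told apart. Markers of the labelled cell type were present: all 5 precursor markers were tested. Of these 1 rose, Pdgfra, and 0 fell, where 6.52% and 6.83% of all probe sets did. The summed signal of the 5 ran from 10932 to 12955 at 31.5 °C and from 10446 to 13240 at 37 °C. Sums here and below are of linear signals, so the brightest genes weigh most. In this list that is Olig1, with means of 6727 at 31.5 °C and 6752 at 37 °C.

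H2B, which pairs with H2A in the nucleosome, had 8 tested probe sets, of which 6 fell, 0 rose and 2 did not pass, at a median of -1.36. H2bc18 (1425868_at) had a signal of 23.9, 29.5, 36.9 and 55.8 at 31.5 °C, against 158, 185, 141 and 167 at 37 °C. Its groups were far apart, with every 31.5 °C array under the lowest 37 °C array. It was 4.67-fold lower at 31.5 °C, a log2 change of -2.22 ± 0.24 (adjusted p = 0.00118), and ranked 15 among all tested probe sets by size of fall. Within pairs 1 to 4, arrays of the same replicate number, its log2 change was -2.72, -2.65, -1.94 and -1.58. H2bc22 (1427762_x_at), a cluster gene of chromosome 13, also fell. It had 75.1, 77.3, 105 and 81.7 at 31.5 °C, against 109, 115, 140.4 and 186 at 37 °C, a log2 change of -0.68 ± 0.18 (adjusted p = 0.0425, up to 0.119 over the alternatives). The 4 arrays at 31.5 °C were all below the 4 at 37 °C, of which replicate 4 was the highest.

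H2bc21 had 2 tested probe sets, and neither passed. Its probe set 1447854_s_at had 167, 166, 170.0 and 162 at 31.5 °C, against 134, 136, 128 and 88.2 at 37 °C. All 31.5 °C arrays were above all 37 °C arrays, at 0.47 ± 0.14, which did not pass (adjusted p = 0.057) but passed with the replicate number as a block (adjusted p = 0.0309). The other H2bc21 probe set, 1455095_at, averaged 58.7 ± 8.51 at 31.5 °C and 50.2 ± 6.45 at 37 °C with overlapping groups (0.22 ± 0.13, adjusted p = 0.307).

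The other 4 H2B probe sets are each annotated to several cluster genes, whose coding sequences are nearly the same, and their values belong to no single gene. Probe set 1452540_a_at, annotated to 11 symbols, had 1076, 1381, 1133 and 1192 at 31.5 °C, against 2390.2, 2941, 2999 and 2929 at 37 °C. It was 2.36-fold lower (-1.24 ± 0.11, adjusted p = 0.000663), and its groups did not overlap. Another 3 probe sets carry the same 3 H2B genes of chromosome 13. Of these 1418072_at had 442, 573, 696 and 784 at 31.5 °C, against 1402, 1744, 1791 and 1932 at 37 °C (-1.48 ± 0.18, adjusted p = 0.00222). The second, 1445565_at, had 25.9, 40.0, 46.7 and 30.7 at 31.5 °C, against 188, 197, 185 and 206 at 37 °C, a 5.56-fold difference (-2.48 ± 0.17, adjusted p = 0.00024). In both, no 31.5 °C array reached the lowest 37 °C array. The third, 1440330_at, averaged 12.8 ± 8.52 at 31.5 °C and 64.4 ± 8.34 at 37 °C and fell by 2.27 on the log2 scale (adjusted p = 0.00195), a size that depends on the floor, since 1 of its arrays at 31.5 °C lay under it (-0.73 with the higher floor and -2.46 with none).

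**Figure D1:**
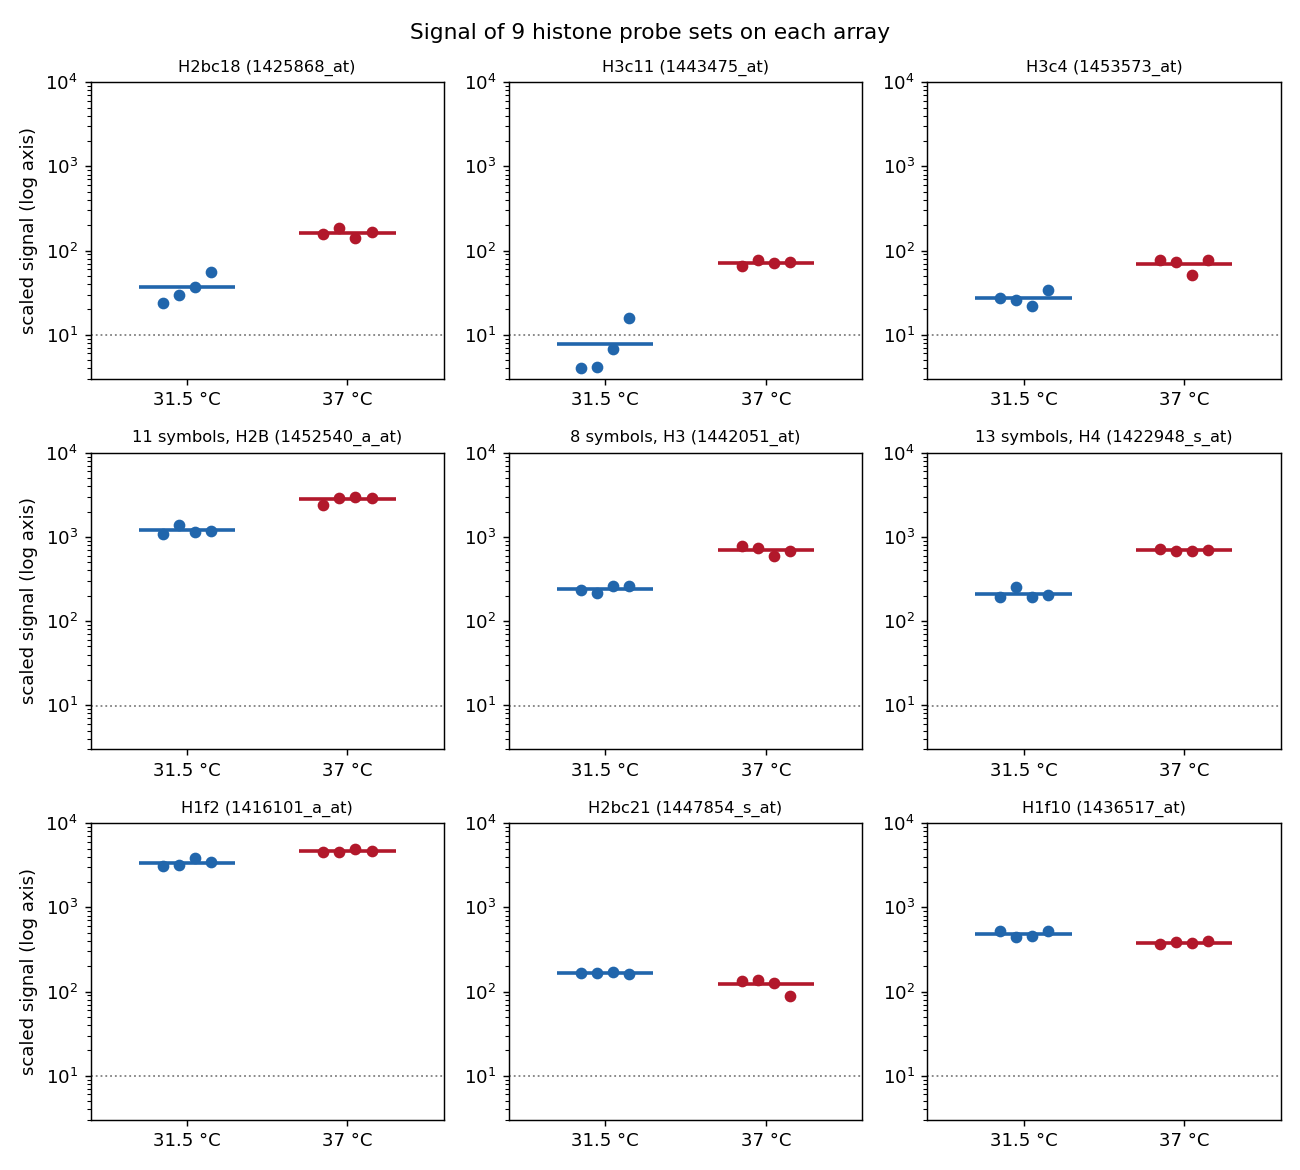
Scaled signal (log axis) of 9 histone probe sets on each array, 4 at 31.5 °C (blue, left) and 4 at 37 °C (red, right); bars are means and the dotted line is the floor of 9.80. In the upper 6 panels (H2B, H3 and H4) every 31.5 °C array lies under every 37 °C array; H1f2 also lies lower, and H2bc21 and H1f10 lie higher at 31.5 °C.

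H3, the core histone whose tail carries many of the known marks, had 6 tested probe sets of the replication-linked kind, of which 5 fell, 0 rose and 1 did not pass (median -1.44). H3c11 (1443475_at) had 3.98, 4.15, 6.76 and 15.9 at 31.5 °C, against 65.3, 77.9, 71.6 and 72.4 at 37 °C. At 31.5 °C replicates 1 to 3 were under the floor and replicate 4 above it, while all 37 °C arrays were clear of it. The log2 change was -2.70 ± 0.16 (adjusted p = 0.000141), and its size rests on the floor: -0.90 with the higher floor and -3.25 with none, with the call kept in both. H3c4 (1453573_at) had 27.6, 25.5, 22.1 and 33.7 at 31.5 °C, against 77.3, 72.9, 51.5 and 76.4 at 37 °C. It was 2.55-fold lower at 31.5 °C (-1.35 ± 0.17, adjusted p = 0.00241), or -0.83 with the higher floor, and lower in 4 of 4 pairs. H3c7 (1431231_at) had 29.2, 29.8, 37.0 and 33.9 at 31.5 °C, against 43.2, 53.5, 52.4 and 28.0 at 37 °C. Its groups overlapped through replicate 4 at 37 °C, and it did not pass (-0.41 ± 0.20, adjusted p = 0.217). Without that array it passed, at -0.62 (adjusted p = 0.0261).

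Of 5 shared H3 probe sets, 3 were tested and fell. Probe set 1442051_at, annotated to 8 H3 genes, had 236, 215, 262 and 258 at 31.5 °C, against 779, 738, 588 and 686 at 37 °C, and was 2.87-fold lower (adjusted p = 0.000315). A second probe set of the same 8 genes, 1422155_at, had 59.1, 41.0, 56.7 and 61.7 at 31.5 °C, against 263, 253, 236 and 264 at 37 °C, and was 4.71-fold lower (-2.23 ± 0.13, adjusted p = 0.000141). Probe set 1460314_s_at, with 12 symbols, averaged 163 ± 12.9 at 31.5 °C and 375 ± 23.0 at 37 °C (-1.20 ± 0.09, adjusted p = 0.000357). None of the 3 had overlapping groups, and the spread between arrays of a temperature was small against the gap. The other 2 were too dim to test: 1427864_at averaged 11.9 ± 6.97 at 31.5 °C and 46.0 ± 10.1 at 37 °C without overlap, and 1427863_at, annotated to 2 H3 genes, averaged 48.1 ± 22.0 at 31.5 °C and 24.2 ± 21.3 at 37 °C, higher in 3 of 4 pairs with overlapping groups. These probe sets share targets, so they are not independent measurements.

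H4, the partner of H3, was tested through 2 probe sets annotated to 13 symbols each, and both fell (median -2.01). Probe set 1422948_s_at had 191, 257, 192 and 203 at 31.5 °C, against 719, 682, 688 and 705 at 37 °C. It was 3.34-fold lower at 31.5 °C (-1.74 ± 0.11, adjusted p = 0.000141). Probe set 1424854_at had 46.1, 49.3, 43.0 and 80.5 at 31.5 °C, against 237, 232, 262 and 309 at 37 °C, a 4.88-fold difference (-2.29 ± 0.20, adjusted p = 0.000539). The highest 31.5 °C array of either probe set was well under the lowest 37 °C array, and within each of the 4 pairs the log2 difference was between -1.41 and -2.61. Another 3 H4 probe sets with the same 13 symbols were too dim to test. They averaged 20.8 ± 4.59 at 31.5 °C and 50.2 ± 5.90 at 37 °C in 1428014_at, and 18.7 ± 5.29 at 31.5 °C and 54.8 ± 12.0 at 37 °C in 1431658_at, with no overlap between temperatures in either. The third, 1422947_at, averaged 17.3 ± 6.53 at 31.5 °C and 15.4 ± 11.2 at 37 °C, higher in 3 of 4 pairs with overlapping groups.

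H2A, the other partner in the dimer with H2B, had 4 tested probe sets, of which 1 fell, 1 rose and 2 did not pass (median -0.15). H2ac19, a cluster gene of chromosome 3, had 1418367_x_at at 567, 555, 612 and 684 at 31.5 °C, against 894, 844, 954 and 1016 at 37 °C, with no overlap (-0.62 ± 0.10, adjusted p = 0.00693). Its second probe set, 1418366_at, averaged 346 ± 34.1 at 31.5 °C and 455 ± 63.5 at 37 °C, and its groups overlapped. The log2 change of -0.39 ± 0.12 did not pass (adjusted p = 0.0675) but passed with the replicate block (adjusted p = 0.0269). Probe set 1438815_at, annotated to H2ac19 and to another H2A gene of chromosome 3, went the other way from the probe sets of H2ac19 alone. It had 72.8, 62.8, 68.7 and 61.7 at 31.5 °C, against 27.4, 26.3, 16.5 and 13.3 at 37 °C, 3.33-fold higher at 31.5 °C (1.74 ± 0.23, adjusted p = 0.00282; 0.78 with the higher floor). It was the only replication-linked probe set that rose in this fit, and every 31.5 °C array was above every 37 °C array. At 37 °C it averaged 20.9 ± 7.03, and it reached the brightness limit of 38.2 only through its 31.5 °C arrays. The shared H2A probe set 1438009_at, with 10 symbols, had 3559, 3678, 3244 and 3226 at 31.5 °C, against 3566, 3132, 3741 and 2609 at 37 °C. Its groups overlapped, and it did not pass (0.08 ± 0.12, adjusted p = 0.713), with a sign that turns without replicate 4 at 37 °C.

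Among replication-linked linker histones, H1f2 was the 1 gene tested, and both of its tested probe sets fell (median -0.47). H1f2 had 3103, 3209.6, 3859.8 and 3477 at 31.5 °C, against 4593, 4577, 4989 and 4633 at 37 °C with 1416101_a_at (-0.47 ± 0.09, adjusted p = 0.0146, up to 0.121 with median scaling). With 1436994_a_at it averaged 1631 ± 299 at 31.5 °C and 2252 ± 127 at 37 °C (-0.48 ± 0.13, adjusted p = 0.047, up to 0.116), a call that 10 of 16 alternatives ended, 7 of them with 1 array left out. Neither probe set had overlapping groups, and both were lower in 4 of 4 pairs. H1f4 (1422398_at) was too dim to test: it read between 1.50 and 1.97 at 31.5 °C, where all arrays were under the floor, and between 7.29 and 20.2 at 37 °C, where 1 was.

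**Figure D2:**
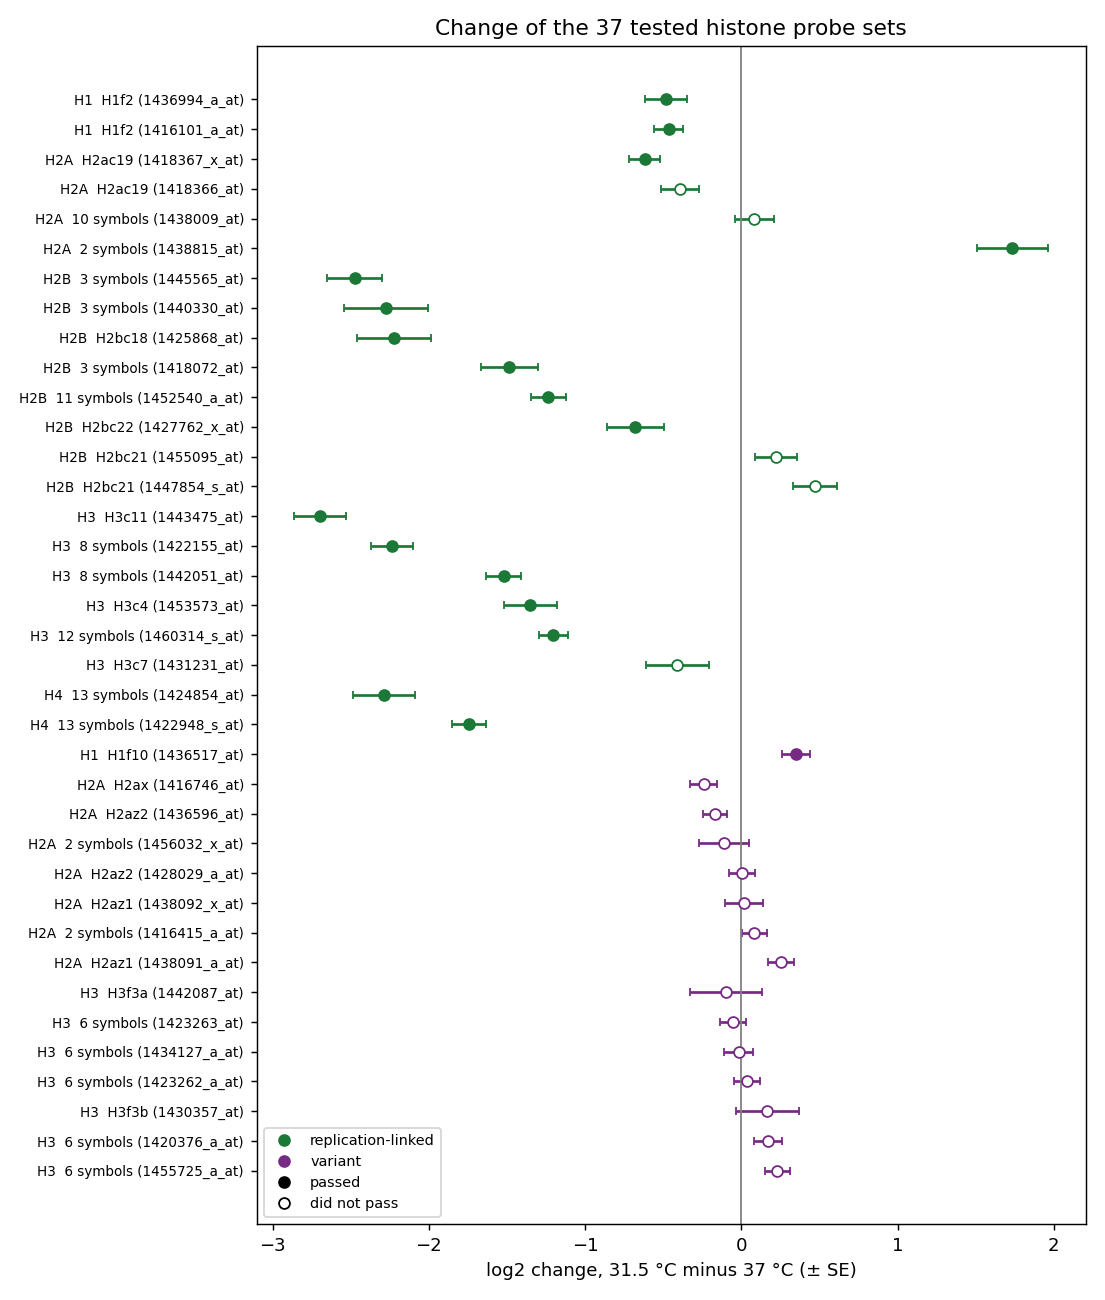
Log2 change at 31.5 °C minus 37 °C (± SE, 4 arrays per temperature) of the 37 tested histone probe sets, by family, with filled points for an adjusted p under 0.05. Replication-linked H2B, H3 and H4 probe sets (green) reach down to -2.70 (H3c11, a size that rests on the floor), while variant histones (purple) lie between -0.24 and 0.35.

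Set against all falls, replication-linked histones were frequent near the top. Of the 259 probe sets that fell at least 2-fold (1.15% of those tested), 12 were histone probe sets, all of them replication-linked H2B, H3 or H4. Only those of H2bc18, H3c11 and H3c4 among the 12 carry 1 symbol. The rest carry several genes, many of them the same, so these are not counts of separate transcripts. Replication-linked probe sets made up 7 of the 50 largest falls and 10 of the 100 largest, among them H3c11 and 1440330_at, whose sizes depend on the floor. H2bc18, H3c11, H3c4, 1440330_at and 1445565_at averaged under the brightness limit of 38.2 at 31.5 °C. These reached the limit only through their 37 °C arrays, so their place among the falls is not independent of it. With the higher floor, replication-linked probe sets were 9 of 199 that fell at least 2-fold (0.884% of those tested), 7 of the 50 largest falls and 8 of the 100 largest. Of the 22 tested, 18 had groups that did not overlap (21.1% of all tested probe sets), and in 16 every 31.5 °C array was below every 37 °C array (10.2% of all). The median log2 change of the 22 was -1.21, -1.10, -1.20 and -1.19 in pairs 1 to 4. By family the median in these pairs was -2.14, -1.82, -2.23 and -1.87 for H4, -1.61, -1.65, -1.24 and -1.30 for H3 and -1.41, -1.35, -1.38 and -1.29 for H2B. These medians were of like size across pairs, while single probe sets varied more, as H2bc18 above and H2bc22, at -0.54, -0.57, -0.42 and -1.19. With the replicate block, 17 of the 22 fell and 2 rose, where 13.9% and 12.4% of all probe sets did. The 8 replication-linked probe sets below the brightness limit (means of 8.65 to 36.7) were not tested. With signals raised to the floor, 4 of them had all 31.5 °C arrays below all 37 °C arrays, as had 2.05% of the 22518 probe sets not tested. That share includes probe sets at the floor at 37 °C, which could not meet this condition, so it is a low mark for comparison.

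**Figure D3:**
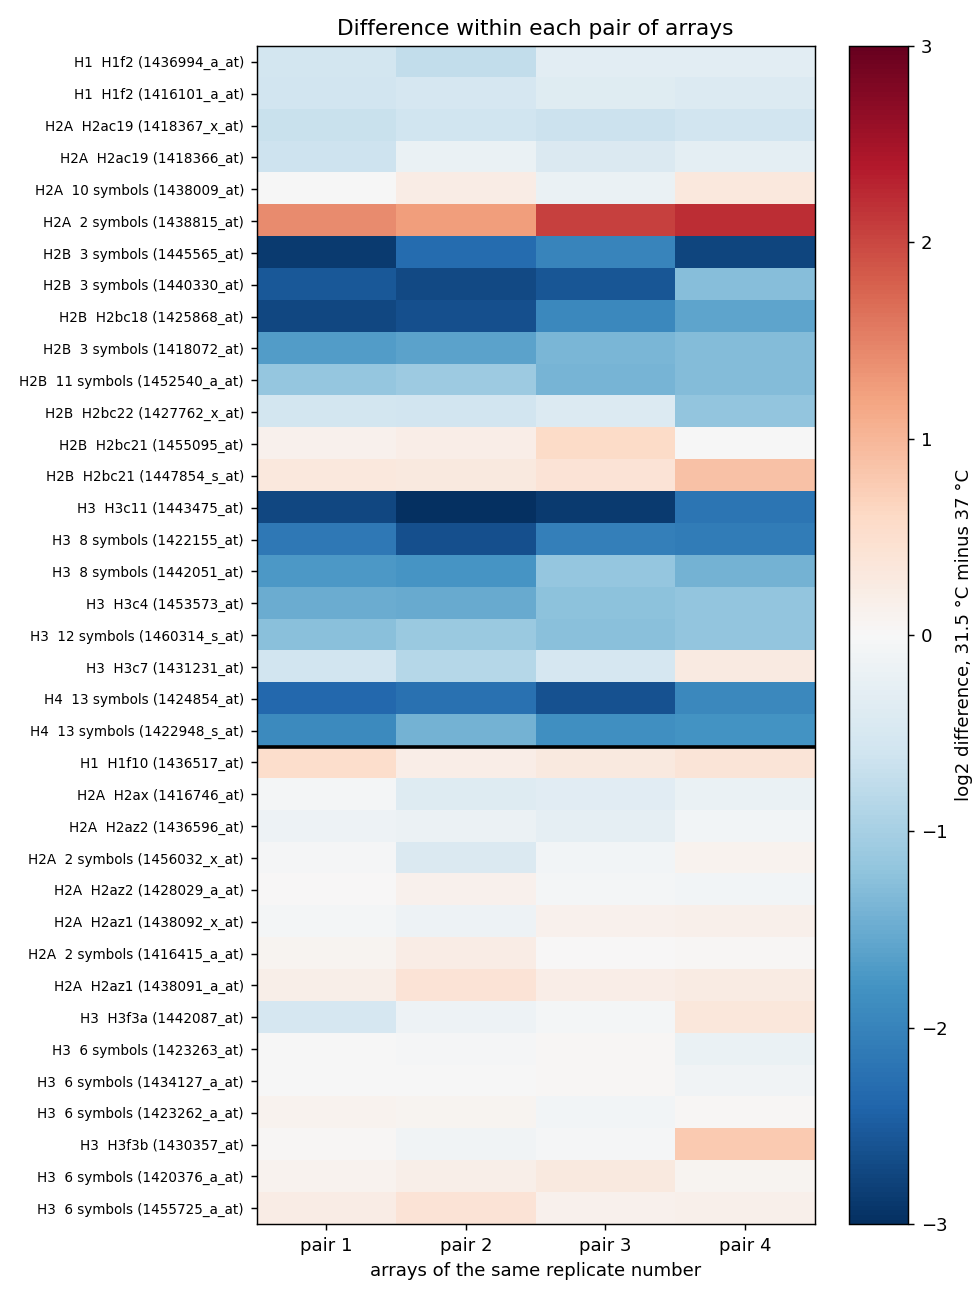
Log2 difference, 31.5 °C minus 37 °C, within each of the 4 pairs of arrays that share a replicate number, for the 37 tested histone probe sets (blue lower, red higher at 31.5 °C; replication-linked above the black line, variant below it). The 16 probe sets that fell are blue in all 4 pairs, and the rows of variant histones stay pale.

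Of the variant histones 1 probe set passed, that of H1f10. H1f10 (1436517_at), a linker variant, had 528, 448, 454 and 521 at 31.5 °C, against 364, 390.4, 374 and 399.7 at 37 °C. Its groups did not overlap, and it was 1.27-fold the 37 °C level (0.35 ± 0.09, adjusted p = 0.0359, up to 0.0974). The call of H1f10 was lost with median scaling and whenever 1 array was left out, while its log2 change stayed between 0.31 and 0.44. H2az1, which replaces H2A near the start of active genes, had 3660.1, 4162, 3563 and 4008 at 31.5 °C, against 3231, 3146, 3123 and 3375 at 37 °C with 1438091_a_at. The groups did not overlap, at 0.26 ± 0.08, which did not pass (adjusted p = 0.0793; adjusted p = 0.0487 with the block). Its second probe set, 1438092_x_at, averaged 1895 ± 293 at 31.5 °C and 1864 ± 175 at 37 °C (0.02 ± 0.12, adjusted p = 0.949), with a sign that single arrays turn.

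H2az2, the close relative of H2az1, averaged 2378 ± 157 at 31.5 °C and 2368 ± 61.6 at 37 °C with 1428029_a_at (0.00 ± 0.08, adjusted p = 0.984; below 0 with quantile scaling). With 1436596_at it averaged 419 ± 7.26 at 31.5 °C and 471 ± 28.9 at 37 °C (-0.17 ± 0.08, adjusted p = 0.197), with groups that did not overlap. H2ax, which is phosphorylated beside DNA breaks and whose mRNA is known in both stem-loop and poly(A) forms, had 1565, 1425, 1393 and 1575 at 31.5 °C, against 1622, 1852, 1749 and 1816 at 37 °C. No 31.5 °C array of H2ax reached the 37 °C arrays, but the change was small and did not pass (-0.24 ± 0.09, adjusted p = 0.0996; 0.0496 with an intensity trend). The replacement H3 genes H3f3a and H3f3b each have a probe set of their own, at -0.10 ± 0.23 for H3f3a and 0.17 ± 0.20 for H3f3b, with adjusted p = 0.826 and 0.629. A further 2 probe sets, shared by an H2A.Z gene and a predicted gene, were at 0.08 ± 0.08 (1416415_a_at, adjusted p = 0.526) and -0.11 ± 0.16 (1456032_x_at, adjusted p = 0.697), with overlapping groups. Another 5 probe sets carry both replacement H3 genes together with related sequences. These averaged between 6630 and 8601 at 31.5 °C and between 5903 and 7712 at 37 °C, and their log2 changes lay between -0.05 and 0.23 with adjusted p of at least 0.0925. Of these, 1455725_a_at had groups without overlap (0.23 ± 0.08, adjusted p = 0.0925), and passed with no brightness limit or with an intensity trend. The 4 variant probe sets not tested were those of the germ cell linker genes H1f6, H1f7 and H1f8, with means of 1.31 to 11.8.

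Replication-linked histone mRNA is made and handled by its own machinery. Of 29 tested genes for its synthesis, 3′ processing and decay, 0 rose, 2 fell and 27 did not pass in limma's test (median 0.02), where 6.52% and 6.83% of all probe sets rose and fell. Lsm10, a subunit of the U7 particle that cuts the histone 3′ end, averaged 303 ± 5.40 at 31.5 °C and 404 ± 23.2 at 37 °C (-0.41 ± 0.08, adjusted p = 0.0112, up to 0.192 with median scaling). Ncbp2, a subunit of the nuclear cap-binding complex, averaged 588 ± 89.4 at 31.5 °C and 957 ± 92.9 at 37 °C (-0.71 ± 0.13, adjusted p = 0.00965, up to 0.0557 with median scaling). Both fell, and neither had overlapping groups. Slbp, which binds the histone stem-loop, averaged 954 ± 68.2 at 31.5 °C and 907 ± 54.9 at 37 °C (0.07 ± 0.09, adjusted p = 0.641). Npat, the activator of the clusters, averaged 256 ± 28.2 at 31.5 °C and 267 ± 24.9 at 37 °C (-0.06 ± 0.11, adjusted p = 0.757). Slbp and Npat, named for their roles after their values were seen, did not pass.

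Histone chaperones carry new histones to DNA. Of 28 tested, 3 rose, 1 fell and 24 did not pass (median 0.11), where 6.52% and 6.83% of all probe sets rose and fell, and counts this small are near that share. Chaf1b, of the assembly factor that loads H3 and H4 behind the replication fork, averaged 196 ± 20.8 at 31.5 °C and 119.8 ± 15.2 at 37 °C (0.71 ± 0.12, adjusted p = 0.00743). Asf1a, which hands H3 and H4 to that factor, averaged 1386 ± 92.3 at 31.5 °C and 1029 ± 49.8 at 37 °C (0.43 ± 0.09, adjusted p = 0.0139, up to 0.0711 with median scaling). Both rose, with every 31.5 °C array above every 37 °C array. Srcap, the motor of the complex that exchanges H2A for H2A.Z, rose by 0.53 on the log2 scale (adjusted p = 0.0332, up to 0.0853). Nap1l1, a chaperone of H2A and H2B, averaged 1985 ± 132 at 31.5 °C and 3086 ± 197 at 37 °C and fell (-0.64 ± 0.09, adjusted p = 0.00361). With the replicate block, 5 chaperones rose and 1 fell, and 2 genes of the mRNA list rose and 3 fell, where 12.4% and 13.9% of all probe sets rose and fell.

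Genes of S phase, the phase in which the histone clusters are read, mostly did not pass. Of 33 tested, 1 rose, 1 fell and 31 did not pass (median 0.05), and with the block 4 rose and 1 fell, near or below the shares of all probe sets (6.52% and 6.83%, or 12.4% and 13.9% with the block). The summed signal of the list overlapped between temperatures, from 20425 to 22711 at 31.5 °C and from 18986 to 22991 at 37 °C. Pcna, the brightest gene of the list, weighs most in this sum and dim genes hardly count. Pola1, the catalytic subunit of the polymerase that starts DNA strands, fell by 0.64 on the log2 scale (adjusted p = 0.0172, up to 0.093). Rfc3, of the loader of the replication clamp, rose by 0.45 on the log2 scale (adjusted p = 0.0192, up to 0.0609). Pcna, the clamp itself, averaged 4865 ± 230.3 at 31.5 °C and 4916 ± 483 at 37 °C (-0.01 ± 0.09, adjusted p = 0.956), and Rrm2, of the enzyme that makes DNA precursors, averaged 1402 ± 95.3 at 31.5 °C and 1402 ± 195 at 37 °C (0.01 ± 0.12, adjusted p = 0.974). Pcna and Rrm2 were chosen for their roles after their values were seen. For both, the temperatures overlapped. Their changes were among those nearest to 0 in the list, where the log2 changes that did not pass ran from -0.43 to 0.38. Rrm1, of the same enzyme as Rrm2, rose with the block (0.33, adjusted p = 0.021). So did Rpa1 (0.38, adjusted p = 0.0118) and Rpa2 (0.30, adjusted p = 0.044), and none of these passed without the block.

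**Figure D4:**
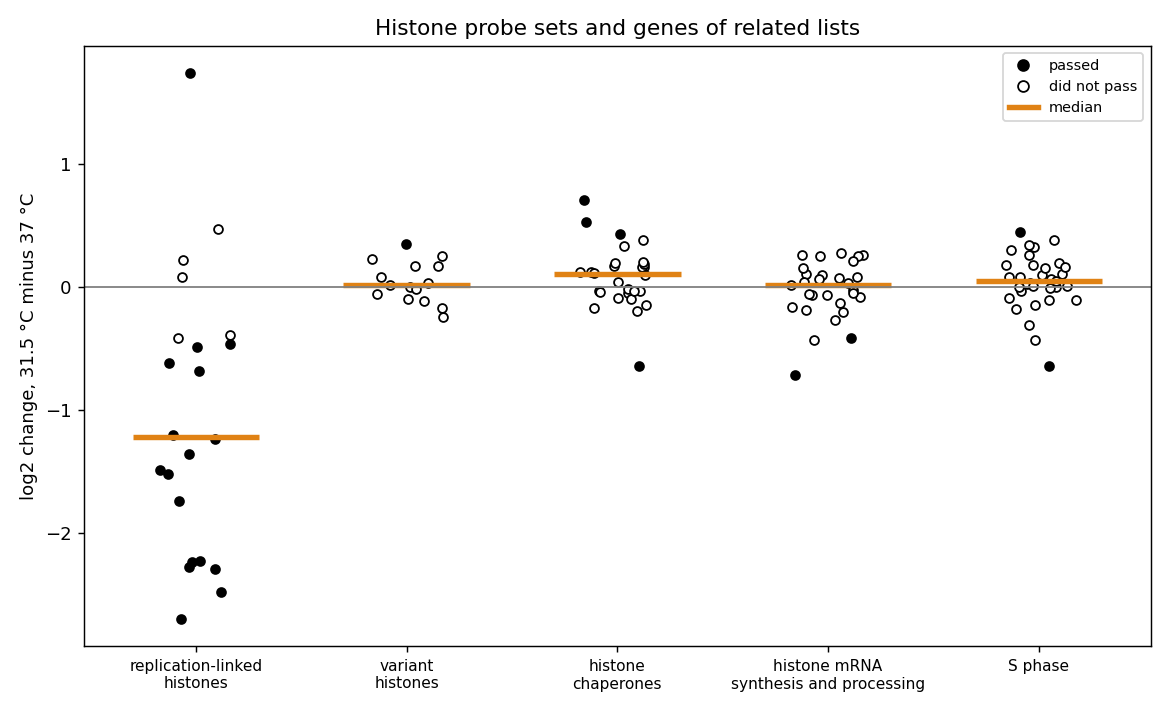
Log2 change at 31.5 °C minus 37 °C of replication-linked and variant histone probe sets and of genes from 3 related lists (1 probe set per gene), with filled points for an adjusted p under 0.05 and a bar at the median. The replication-linked histones have a median of -1.22; the medians of the other 4 groups lie between 0.02 and 0.11.

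Markers of differentiating oligodendrocytes moved in the same direction as the replication-linked histones. Of 8 tested, 7 fell (Mbp, Mag, Mobp, Cnp, Cldn11, Enpp6 and Gpr17) and 0 rose. With the replicate block 8 fell, which adds Myrf (adjusted p = 0.0176). Over all probe sets tested, 6.83% fell and 6.52% rose, or 13.9% and 12.4% with the block. The summed signal of the list was 10333 to 14415 at 31.5 °C and 20618 to 25067 at 37 °C. The summed signal of 6 astrocyte markers was 7185 to 12823 at 31.5 °C and 9734 to 17752 at 37 °C, with 1 fall, that of S100b. With the block 4 fell, S100b, Gfap (adjusted p = 0.0049), Aqp4 (adjusted p = 0.00294) and Aldh1l1 (adjusted p = 0.0116), each lower in 4 of 4 pairs. Microglia markers summed to 5993 to 11867 at 31.5 °C and 9377 to 16547 at 37 °C, neuron markers to 6221 to 8719 at 31.5 °C and 6348 to 9982 at 37 °C, and fibroblast markers to 1521 to 4534 at 31.5 °C and 1661 to 3691 at 37 °C. None of the 17 genes in these 3 lists passed in limma's test. With the replicate block, 3 of 6 microglia, 2 of 6 neuron and 2 of 5 fibroblast markers fell, against 13.9% of all probe sets. No marker of any list was at the floor on all 8 arrays. The part of these cells in the histone result was not tested.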

How the data were processed

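The values are deposited as probe set intensity on a linear scale, which the authors computed with MAS5, per the submitters' processing notes. Version, scaling target, primer, build and detection calls are not given in the sources used here. Symbols came from the platform annotation: 34945 probe sets carry 1 symbol and 932 carry several, which name no gene. All 60 histone symbols matched RefSeq (GRCm38.p6), and 54 had a promoter window.

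After removal of 64 controls each array was scaled to the mean 2% trimmed mean (factors 0.848 to 1.60), raised to the 25th percentile of all values (a signal of 9.80) and put on a log2 scale. The 22519 probe sets with a mean at or above the median (38.2) were fitted with limma 3.58.1 in R 4.3.3 (lmFit, eBayes, two-sided), temperature as the only term. Adjusted p-values are Benjamini-Hochberg over all of them, at 0.05. For list genes the brightest probe set with 1 symbol was read.

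Arrays of 1 replicate number deviated together from their group means (r = 0.52, 0.39, 0.44 and 0.58, at most 0.003 between different numbers). Replicate numbers were thus read as pairs for the differences within pairs and in the block fit. The main fit and its adjusted p-values do not use the pairing. Block values are given where a histone call differs and as counts for the lists.

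All histone probe sets could be named, with values by array for those that passed and up to 10 others. From each list, the members that passed could be named. The members and lists were chosen with earlier results of these data known. Replication-linked histones were taken by symbol alone to be the cluster genes (H1f1 to H1f5, H2ac, H2bc, H3c, H4c), and the rest variants. Whether each member, H2bc21 among them, is replication-linked was not checked. The fit was tested on simulated data. Alternatives were quantile and median scaling, other floors and brightness limits, 1 probe set per gene, an intensity trend, the block, and leaving out each array. Figures were drawn with matplotlib 3.10.9.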

Additional observations from a re-analysis of the deposited data

Results flagged for a closer look

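Of 74 groups of 4 arrays examined over the tested histone probe sets, 5 held 1 array far from the other 3 by Dixon's test, and chance flags about 1 group in 20. For H3c11 (1443475_at) replicate 4 at 31.5 °C read 15.9, against 3.98 to 6.76 on the other 3 arrays, all under the floor. The test used signals raised to the floor, where those 3 arrays share 1 value. Any reading above the floor would then stand apart, so this flag follows from the floor and not from the signals printed. For H3c4 (1453573_at) replicate 3 at 37 °C read 51.5, against 72.9 to 77.3. For H2bc21 (1447854_s_at) replicate 4 at 37 °C read 88.2, against 128 to 136. The shared H2B probe set 1452540_a_at read 2390 in replicate 1 at 37 °C, against 2929 to 2999. For H1f2 (1416101_a_at) replicate 3 at 37 °C read 4989, against 4577 to 4633. In these groups of H3c11, H3c4, H1f2 and 1452540_a_at the array that stood apart did not reach the arrays of the other temperature. For H2bc21 (1447854_s_at), leaving out replicate 4 at 37 °C gave a log2 change of 0.33, which passed (adjusted p = 0.0453).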

How the results depend on the processing

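Of 45 single results (37 histone probe sets and 8 list genes), 26 passed. Of these, 16 kept their call and direction under every alternative in which they were tested, and 0 turned their sign. The count of replication-linked probe sets that fell (16) was 13 to 17 under the other scalings, floors, no brightness limit, the trend and the block, and 14 to 15 with 1 array left out. It was 9 with the brightness limit at the 70th percentile and 6 with 1 probe set per gene symbol, where 10 and 8 such probe sets were tested. The replication-linked rises (1) were 2 with the replicate block, 0 at the 70th percentile and 1 to 2 with 1 array left out. The variant rises (1) were 2 with the block, with no brightness limit and at the 70th percentile, 0 with median scaling, 3 with the trend and 0 in each of 8 fits with 1 array left out. The variant falls (0) were 1 with the trend and 0 with 1 array left out. Over all probe sets, 3007 were called, 5938 with the block, 1656 with median scaling, 1787 with 1 probe set per symbol and 1598 to 2754 with 1 array left out. Of the chaperone and histone mRNA genes 6 were called, 11 with the block, 3 with median scaling and 5 to 6 with 1 array left out. The block changed no other histone call than those of 1418366_at, 1447854_s_at and 1438091_a_at. Signs turned for 9 results near 0, none of which passed: 1428029_a_at with quantile scaling (-0.020), and 1423263_at (0.036) and 1434127_a_at (0.072) with median scaling. With 1 array left out, 8 of them ranged over 0: 1428029_a_at (-0.029 to 0.040), 1434127_a_at (-0.057 to 0.035), 1438092_x_at (-0.085 to 0.077), 1438009_at (-0.021 to 0.15), 1456032_x_at (-0.23 to 0.012), 1442087_at (-0.27 to 0.12), 1430357_at (-0.017 to 0.30) and 1423262_a_at (-0.0038 to 0.069). For the other changes the cause was not tested. Histone genes with near-identical sequence may share signal also where a probe set carries 1 symbol, and dim probe sets have only a bound at 31.5 °C.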
